A study of Homo sapiens with 16 samples.

Results

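RNA Seq analysis of PC3 cells compared 2 libraries from cells transfected with siMxy, a duplex whose guide carries the 6mer seed GGGGGC, with 2 libraries from cells transfected with the non-targeting control siNT (siNT1 in the sample descriptions, which name siMxy as siGGGGGC). These 4 samples, of 16 in the series, were taken by their condition labels, 1 library per siRNA at 24 h and 1 at 48 h after transfection. PC3 is an established prostate carcinoma line, and the labels list its genotype as wild type, so no allele was added. Cells received 1 nM siRNA with RNAiMax per the labels, while the methods of the study name a higher dose. Total RNA was depleted of ribosomal RNA and sequenced, and between 27937092 and 29382549 reads were counted on genes in the 4 libraries. Mock-treated PC3 cells, PC3 cells given another siRNA (siCAG) and the ovarian cancer line HeyA8 given the same treatments, each again with 1 library per time point, are used for reference. By the methods of the study the 24 and 48 h cells were lysed in different wells, and nothing says that they came from separate transfections. With 1 library per siRNA and time, p-values rest on how far the differences between siRNAs varied from 24 to 48 h. Any spread between wells of the same siRNA and time is mixed into this and was not measured by itself. Spread between separate transfections was not measured either.

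A small RNA guide in an Argonaute protein pairs with mRNAs mainly through its seed, the bases just after its 5′ end, and most matches that lower an mRNA lie in its 3′ UTR. A G-rich seed pairs with a C-rich match, here GCCCCC, and the study asked how such a guide kills cancer cells. In the RefSeq table of mature miRNAs (GRCh38.p14), 2 of 2370 human miRNAs carry GGGGGC at positions 2 to 7. Both lie on chromosome 11 and are shown because they share the seed with siMxy, with bases 2 to 8 in capitals.
hsa-miR-1237-5p (chr11:64368651-64368671, plus strand): cGGGGGCGgggccgaagcgcg
hsa-miR-4488 (chr11:61508599-61508616, plus strand): aGGGGGCGggcuccggcg

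Of 15136 genes tested, 908 were lower (6.00%) and 555 were higher (3.67%) after siMxy than after siNT at a Benjamini-Hochberg adjusted p under 0.05 in a fit with time point as a term, and the median log2 fold change over all genes tested was 0.0029. All 908 and all 555 moved the same way at both times, as did 10710 of all 15136 genes tested. The fit itself favours genes that agree at both times, so this is no separate evidence. Without a term for the time point, 448 genes were lower and 177 higher. Without either siNT library the same test called 0 genes, with 1660 lower and 1165 higher at an unadjusted p under 0.05 when the 24 h siNT library was left out and 1526 and 690 when the 48 h library was. Every call against siNT below therefore needs both siNT libraries. The coefficient of variation left by siRNA and time point was 18.0%. Lists of genes are given by how many of their tested members passed the test in each direction, to be read against 6.00% lower and 3.67% higher, and by their median log2 fold change. The plot of gene lists gives both for each list.

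**Figure D1:**
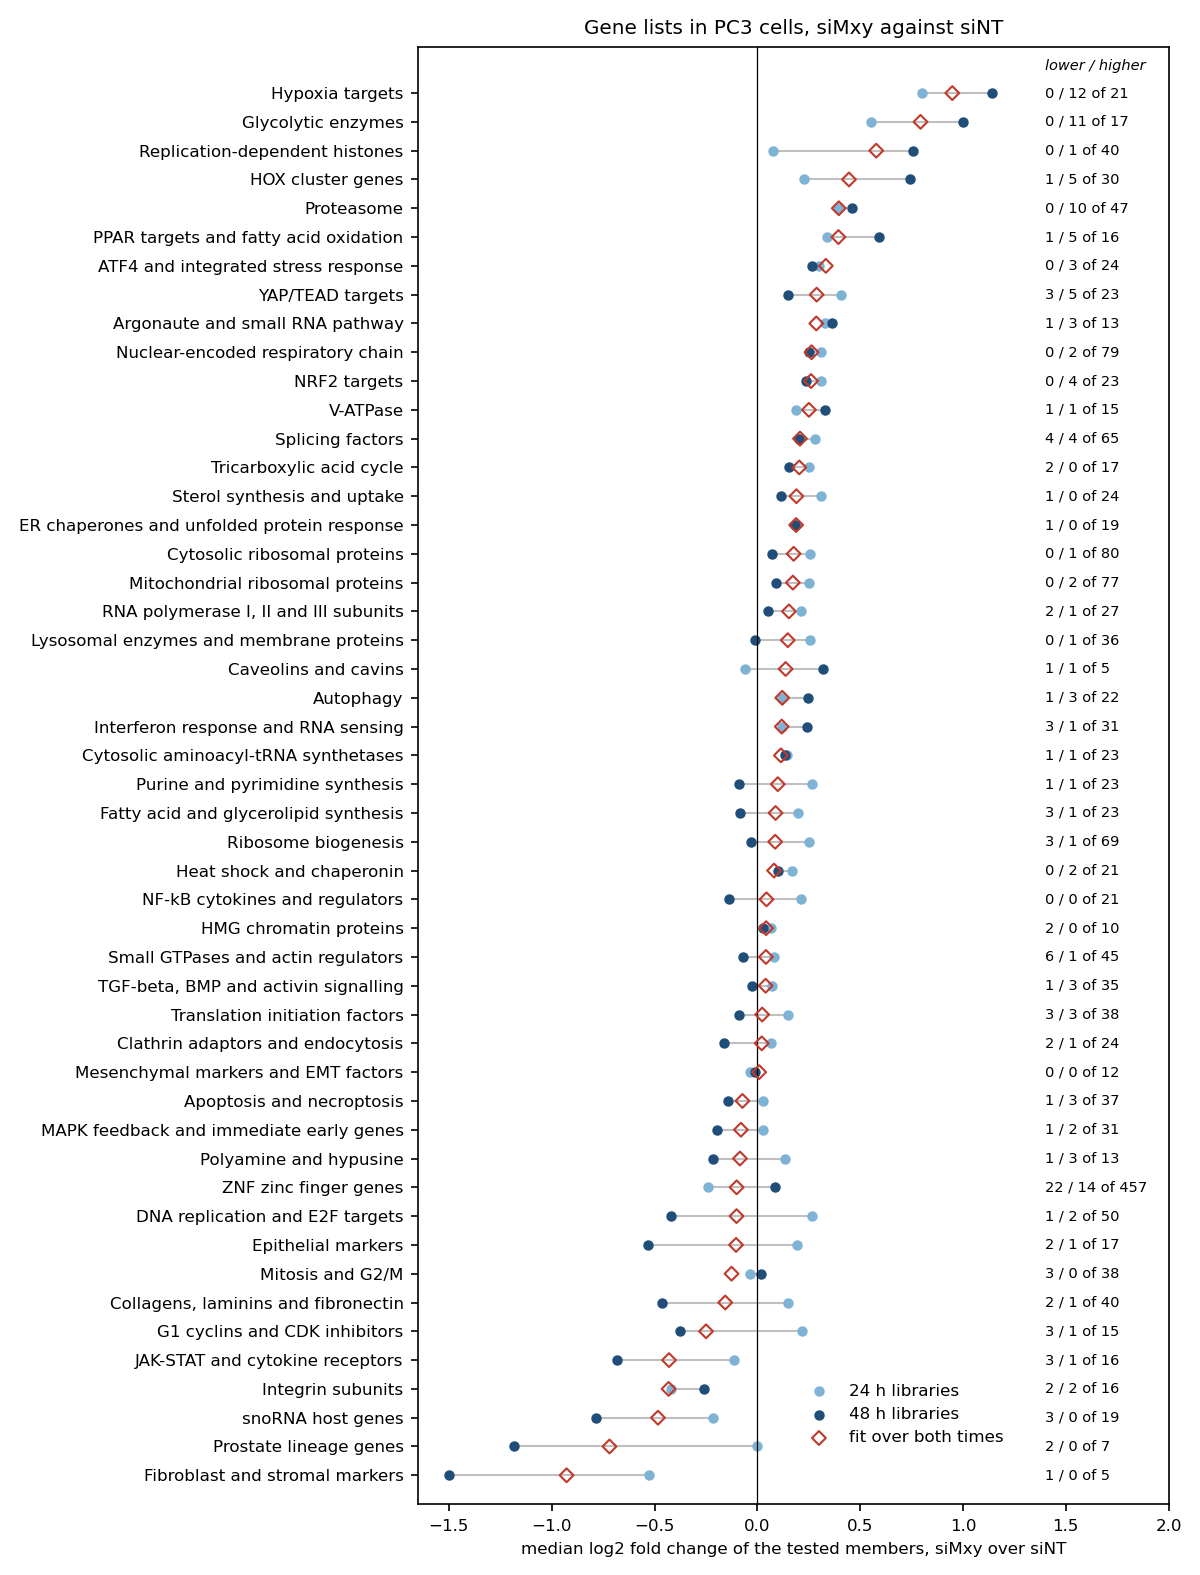
Median log2 fold change (siMxy over siNT, horizontal axis) of the tested members of each gene list in PC3 cells, from the 24 h libraries, the 48 h libraries and the fit over both; numbers at the right are members lower and higher at an adjusted p under 0.05 of those tested. Hypoxia targets (median 0.95, 12 of 21 higher) and glycolytic enzymes (0.79, 11 of 17 higher) stand at the top, with 0 members lower.

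Among the lists plotted, glycolysis had the largest share of risen genes. Its enzymes turn glucose into pyruvate and lactate in the cytosol, and many of their genes, together with those for glucose entry and lactate export, are classic targets of the hypoxia-inducible factors. Of 17 glycolytic enzyme genes tested, 11 were higher and 0 lower, and 16 were higher at both times. The list median stood at 0.55 in the 24 h libraries and at 1.00 in the 48 h libraries, on the log2 scale. The risen enzymes covered hexokinase (HK1, HK2), phosphofructokinase (PFKP), triosephosphate isomerase (TPI1), glyceraldehyde-3-phosphate dehydrogenase (GAPDH), phosphoglycerate kinase (PGK1), phosphoglycerate mutase (PGAM1), enolase (ENO1, ENO2), pyruvate kinase (PKM) and lactate dehydrogenase (LDHA). ALDOA, the main aldolase, had a log2 fold change of 0.09 (adjusted p = 0.673), and PFKL and PFKM, the other phosphofructokinases, 0.29 and 0.38 (adjusted p = 0.190 and 0.111).

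SLC2A1 encodes the glucose transporter GLUT1 and lies at chr1:42925375-42959176 (hg38). Its level was 2826 normalized counts at 24 h and 3241 at 48 h after siNT. After siMxy it had 6700 and 16952, and in mock cells 2507 and 3529. Both siMxy libraries lay above all siNT and mock libraries, and the log2 fold change was 1.87 (SE 0.30, adjusted p = 0.0177). HK2, the hexokinase that starts glycolysis in many tumours, went from 4105 and 5348 to 6487 and 13402 (log2 fold change 1.02, SE 0.22, adjusted p = 0.0346). PFKP, the platelet-type phosphofructokinase, went from 4039 and 4376 to 7421 and 12058 (1.18, SE 0.18, adjusted p = 0.0169). For these 3 genes the groups did not overlap, and the 48 h siMxy library was the highest. With 2 libraries per siRNA such separation, here and below, is a description, and its share among all genes tested is not given.

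PGK1, on chromosome X from 78104169 to 78126827, rose from 25284 and 37378 after siNT to 38702 and 104163 after siMxy (log2 fold change 1.10, SE 0.27, adjusted p = 0.0465). LDHA, which makes lactate, went from 49305 and 70964 to 73230 and 144178 (0.81, SE 0.18, adjusted p = 0.0370). GAPDH, often used as a reference gene, went from 72627 and 86903 to 100045 and 160703 (0.68, SE 0.17, adjusted p = 0.0451). ENO1 went from 77038 and 100684 to 112547 and 201425 (0.79, SE 0.20, adjusted p = 0.0480). Mock cells held these genes above siNT cells at both times, at 43452 and 52200 for PGK1, 73521 and 92708 for LDHA, 93838 and 101374 for GAPDH and 104241 and 105770 for ENO1. At 24 h the siMxy library was thus below or close to mock for PGK1 and LDHA, and at 48 h it was above both mock libraries for each of the 4 genes.

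Against mock, 8.83% of all genes tested were higher and 12.3% lower, and 5 of the 17 glycolytic enzymes were higher with a median log2 fold change of 0.41. The siNT libraries themselves had a median of -0.30 for this list against mock, with 0 members past the test. In siCAG cells the list had a median of 0.06 against siNT, with 0 called. In HeyA8 cells, where the same edgeR fit called 0 of 13872 genes (851 lower and 501 higher at an unadjusted p under 0.05), the median of the 17 was 0.17 and 13 lay above 0. Without the time term 3 of the 17 were called in PC3 cells, without the 48 h siMxy library 2, and adjustment of the fold changes for GC content and length of the transcript gave a median of 0.82.

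**Figure D2:**
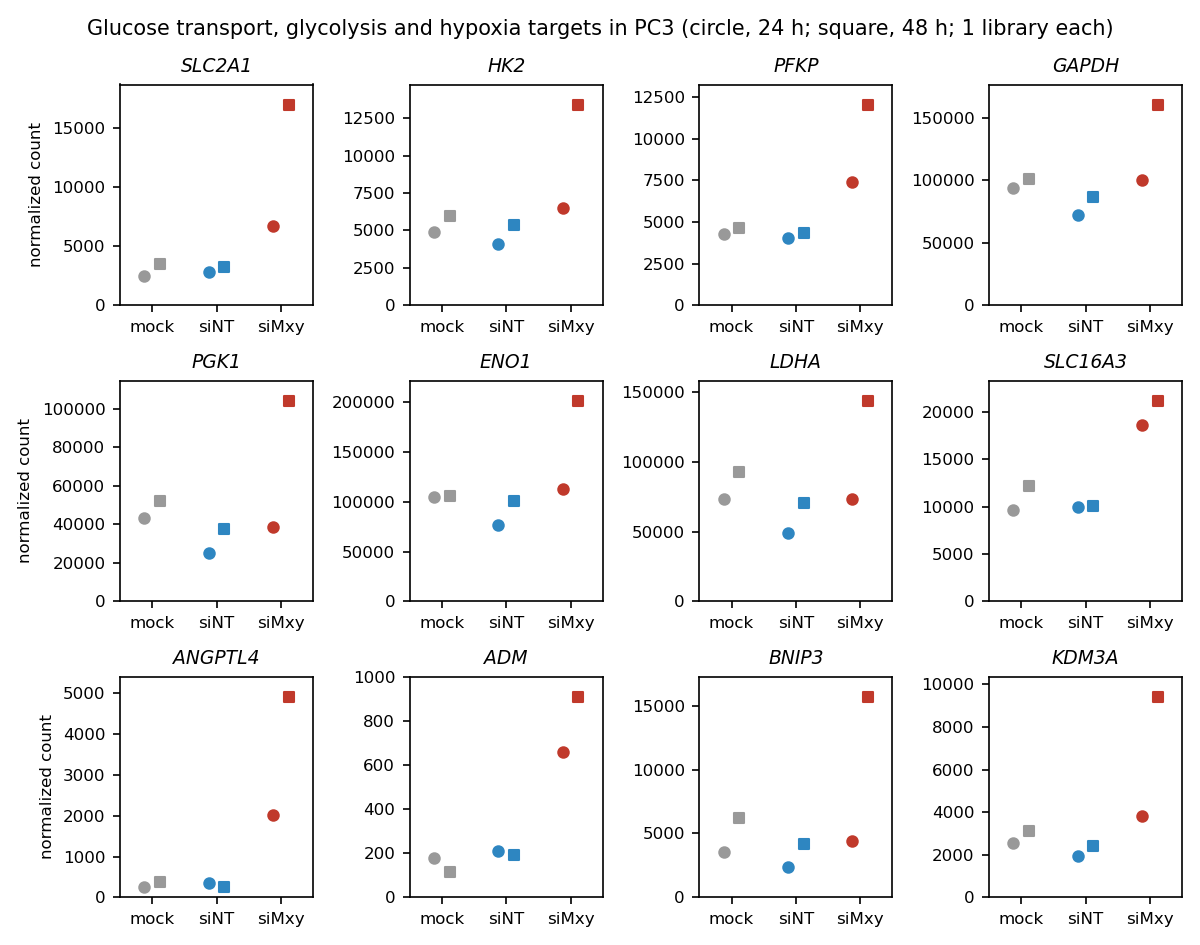
Normalized counts (vertical axes, starting at 0) of 12 genes of glucose transport, glycolysis and the hypoxia response in mock, siNT and siMxy PC3 cells; each point is 1 library, circles 24 h and squares 48 h. The 48 h siMxy library is the highest in every panel, while for PGK1 and LDHA the 24 h siMxy library lies below mock.

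Hypoxia-responsive genes rose with the enzymes. Of 21 targets of the hypoxia-inducible factors tested, 12 were higher and 0 lower, with a median log2 fold change of 0.95 (0.80 at 24 h and 1.14 at 48 h). ANGPTL4, a secreted inhibitor of lipoprotein lipase that is also a target of the PPAR receptors, was the most risen gene among those above 1000 normalized counts. It had 350 and 257 normalized counts after siNT, 2017 and 4916 after siMxy and 261 and 376 in mock cells (log2 fold change 3.44, SE 0.42, adjusted p = 0.0106). ADM, the vasodilator peptide adrenomedullin, went from 211 and 190 to 660 and 910 (1.96, SE 0.31, adjusted p = 0.0174).

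BNIP3, a mitophagy receptor, went from 2397 and 4161 to 4410 and 15704 (log2 fold change 1.47, SE 0.31, adjusted p = 0.0331). Its 24 h siMxy value lay below the 48 h mock value of 6217. KDM3A, a histone H3 lysine demethylase, went from 1933 and 2427 to 3840 and 9422 (1.52, SE 0.26, adjusted p = 0.0200), with groups that did not overlap. SLC16A3, the lactate exporter MCT4, went from 9973 and 10073 to 18617 and 21180 (0.99, SE 0.21, adjusted p = 0.0317). The kinases PFKFB3 and PFKFB4, which make the activator of phosphofructokinase, had log2 fold changes of 1.31 and 0.85 (adjusted p = 0.0288 and 0.0489).

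Not every hypoxia target moved. VEGFA, the angiogenic growth factor, had 2774 and 3259 normalized counts after siNT and 2974 and 3374 after siMxy, a log2 fold change of 0.08 (adjusted p = 0.759). CA9, a standard hypoxia marker, had at most 15.4 normalized counts in the siNT and siMxy libraries. NDRG1 had a log2 fold change of -0.24 (adjusted p = 0.359), and PDK1, which slows pyruvate entry into mitochondria, 0.56 (adjusted p = 0.137). Against mock the list had a median of 0.89 with 9 members higher and 1 lower (NDRG1, -0.62), and after siCAG against siNT -0.20 with 0 called. Without the time term 4 of the 21 were called, and without the 48 h siMxy library 5 with a median of 0.56. In HeyA8 cells the median of 19 members was 0.40. FUT11, a fucosyltransferase outside the list, was also among the 12 most risen abundant genes (1.61, SE 0.22, adjusted p = 0.0131).

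Hypoxia-inducible factors bind a core of ACGTG or GCGTG. In RefSeq promoters (250 bases before to 50 after the start, GRCh38.p14), ACGTG on either strand was found in 21.6% of 27305 promoters and in 26% of those of 11557 tested genes. It was found in 5 of the 11 risen glycolytic genes and 6 of the 12 risen hypoxia targets, and in 8 of all 17 glycolytic genes and 7 of 18 matched hypoxia targets. Either core was found in 62.1% of promoters of tested genes (48.4% of all), in 7 of the 11 risen glycolytic genes and in 11 of the 12 risen hypoxia targets, and CACGTG, the E-box that contains ACGTG on both strands, in 7.43% of all promoters, 9.73% of those of tested genes, 2 of the 11 risen glycolytic genes and 2 of the 12 risen hypoxia targets. A match describes the letters and not binding, which was not measured. The risen genes HK2, GAPDH, ANGPTL4, ANKRD37, P4HA1 and EGLN1 also hold ACGTG before the start and are not shown. The windows of 30 bases below are shown for some of the risen genes that hold it there. ACGTG or its complement CACGT is in capitals, on the strand of the gene.
PGK1 (chrX:78104052-78104081, plus strand): caaacggaagccgCACGTctcactagtacc
LDHA (chr11:18394477-18394506, plus strand): ACGTGggttcccgCACGTccgccggccccc
ENO2 (chr12:6914449-6914478, plus strand): cacccgcgctcgtACGTGcgcctccgccgg
BNIP3 (chr10:131982040-131982069, minus strand): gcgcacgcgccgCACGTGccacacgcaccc
DDIT4 (chr10:72273786-72273815, plus strand): gagaacgttgcttACGTGcgcccggagtcc

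While glycolysis rose, the entry enzyme of the citric acid cycle fell. Of 17 genes of the cycle, 2 were lower and 0 higher, with a median log2 fold change of 0.20. CS, citrate synthase, fell from 11487 and 11041 normalized counts to 5388 and 3590 (log2 fold change -1.35, SE 0.17, adjusted p = 0.0110). CS stood at -1.19 in HeyA8 cells, on the same scale. Of 79 nuclear genes of the respiratory chain, 0 were lower and 2 higher, with a median of 0.26. Genes on the mitochondrial genome are not in the count table, and their level was not analysed here.

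Fat metabolism was split. Of 16 PPAR targets and fatty acid oxidation genes, 5 were higher and 1 lower (median 0.39). Besides ANGPTL4 these included both carnitine palmitoyltransferases, which carry fatty acids into mitochondria, CPT2 (683 and 714 against 1233 and 1895 normalized counts, log2 fold change 1.15, adjusted p = 0.0235) and CPT1A (0.62, adjusted p = 0.0385). The member that fell was UCP2, a mitochondrial carrier (-1.03, adjusted p = 0.0468). Of 23 genes of fatty acid and glycerolipid synthesis, 3 were lower and 1 higher (median 0.09). FASN, fatty acid synthase, fell from 13613 and 14124 to 6646 and 4192 (-1.37, SE 0.23, adjusted p = 0.0198). AGPAT1, an acyltransferase of phospholipid synthesis, had a log2 fold change of -2.36 (SE 0.22, adjusted p = 0.00700), and CPTP, a ceramide-1-phosphate carrier, one of -2.35 (SE 0.39, adjusted p = 0.0192). FASN was also at 7543 and 6088 after siCAG, and AGPAT1 at 608 and 621 against 2975 and 3126 after siNT.

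Genes of the proteasome, the protease that degrades ubiquitylated proteins, had small changes, most of them upward. The list as a whole was not tested. Of 47 subunit and regulator genes, 10 were higher and 0 lower, and 36 were higher at both times. Their median was 0.40 on the log2 scale, with 0.39 in the 24 h and 0.46 in the 48 h libraries. PSMB2, a core subunit, went from 3993 and 3196 normalized counts to 6445 and 7057 (log2 fold change 0.91, SE 0.16, adjusted p = 0.0229). Mock cells held 5309 and 5324 and siCAG cells 6179 and 6886, so for PSMB2 the siNT libraries were the low ones. ADRM1, a ubiquitin receptor of the proteasome, went from 5250 and 5249 to 8346 and 10517, with 4665 and 4641 in mock (0.84, SE 0.15, adjusted p = 0.0219). Against mock 14 of the 47 were higher, and in HeyA8 cells the median was 0.09. Without the time term 2 of the 47 were called, without the siCAG libraries 4, and from the 4 siMxy and siNT libraries alone or without the 48 h siMxy library 0, while the median stayed at 0.34 or above.

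Genes of protein synthesis gave few calls. Of 80 cytosolic ribosomal protein genes 1 was higher and 0 lower (median 0.18), and of 77 mitochondrial ones 2 were higher and 0 lower (median 0.17). Of the 80 and the 77, 52 and 39 had values above 0 at both times and 3 and 8 below, where 5532 of all 15136 genes lay above and 5178 below. The medians were 0.046 and 0.041 without the 24 h siMxy library, and 0.10 and 0.081 when adjusted for transcript GC content and length. The medians in HeyA8 cells were -0.13 and -0.09. Ribosome biogenesis (69 genes) had 3 lower and 1 higher, translation initiation (38 genes) 3 lower and 3 higher, and splicing factors (65 genes) 4 lower and 4 higher. PABPC1, the main poly(A)-binding protein, fell from 61244 and 65961 normalized counts to 43229 and 35927 (log2 fold change -0.69, SE 0.15, adjusted p = 0.0345). SF3A1 and SF3A2, subunits of the same splicing complex, had log2 fold changes of -1.09 and -1.36 (adjusted p = 0.0306 and 0.0104). POLR2K, a small subunit shared by the RNA polymerases, went from 3004 and 2793 to 1139 and 655 (-1.72, SE 0.22, adjusted p = 0.0118).

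Host genes of small nucleolar RNAs, long transcripts that are spliced and turned over quickly, gave calls in 1 direction. Of 19 tested, 3 fell and 0 rose, 13 were lower at both times, and the list median was -0.48 on the log2 scale (-0.22 in the 24 h and -0.79 in the 48 h libraries). The list median was -0.23 without the 48 h siMxy library. Adjustment for transcript GC content and length gave -0.25. It had no value for SNHG3 or SNHG4, so it does not describe the whole list. In HeyA8 cells the median was -0.80 and 0 of 19 lay above 0. SNHG3 went from 1271 and 1438 normalized counts to 697 and 524 (log2 fold change -1.14, SE 0.22, adjusted p = 0.0281). TAF1D, a subunit of the polymerase I initiation factor whose introns hold such RNAs, went from 1297 and 790 to 517 and 376 (-1.20, SE 0.18, adjusted p = 0.0154). Only 2 of the 19 have an annotated 3′ UTR, and 0 of these hold GCCCCC. Among gene classes, 38 of 820 long non-coding RNA genes were lower and 7 higher, against 843 and 541 of 13393 coding genes.

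Genes that drive the actin skeleton were among the most lowered. Small GTPases of the family that holds RHOC and CDC42 are switches that set actin bundles and myosin tension, and they are held in the cytosol by guanine dissociation inhibitors. Of 45 genes of small GTPases and actin regulators tested, 6 were lower and 1 higher, and the median of the list was 0.04, so the change was in single genes. ARHGDIA, the main such inhibitor, had 10380 and 10600 normalized counts after siNT and 2410 and 1100 after siMxy (log2 fold change -2.64, SE 0.29, adjusted p = 0.00832). LIMK1, the kinase that inactivates cofilin, went from 2553 and 3094 to 723 and 486 (-2.21, SE 0.25, adjusted p = 0.00873). In both genes every siMxy library lay below every siNT, mock and siCAG library.

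RHOC, a small GTPase linked to cell migration, fell from 5370 and 5844 to 1981 and 1033 normalized counts (log2 fold change -1.90, SE 0.31, adjusted p = 0.0186). MYH9, the heavy chain of non-muscle myosin IIA on chromosome 22 from 36281277 to 36388067, fell from 40159 and 36061 to 13544 and 7594 (-1.89, SE 0.20, adjusted p = 0.00773). ZYX, a focal adhesion protein, fell from 8314 and 10174 to 3087 and 1957 (-1.88, SE 0.26, adjusted p = 0.0131). ARPC1B, a subunit of the Arp2/3 complex that nucleates actin branches, had -1.48 (SE 0.33, adjusted p = 0.0363). CDC42, the GTPase that forms filopodia, was the member that rose, from 7271 and 6429 to 11071 and 13549 (0.84, SE 0.16, adjusted p = 0.0248), with 12087 and 13552 in mock cells.

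In HeyA8 cells these 6 lowered genes had log2 fold changes of -2.61 (ARHGDIA), -2.24 (LIMK1), -1.66 (RHOC), -1.93 (MYH9), -2.02 (ZYX) and -1.07 (ARPC1B), and CDC42 one of 0.74. By the longest 3′ UTR in GENCODE v44 (GRCh38), 5 of the 6 hold GCCCCC there, 4 times in MYH9, 3 times in ARHGDIA, 2 times each in RHOC and ZYX and 1 time in ARPC1B, while LIMK1 holds 0 matches. Of all 45 genes of the list, 24 hold a match. For 3 of these genes the first match is shown with 12 bases on either side in the sense of the mRNA, GCCCCC in capitals, and the coordinates are those of the 6 bases.
ARHGDIA (chr17:81868588-81868593, minus strand): tgccctttctgtGCCCCCcaggttctatct
ZYX (chr7:143390750-143390755, plus strand): ctgagaccacctGCCCCCacctcagttatt
ARPC1B (chr7:99394714-99394719, plus strand): aaaaaaaaaaatGCCCCCaaagcactatgc

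**Figure D3:**
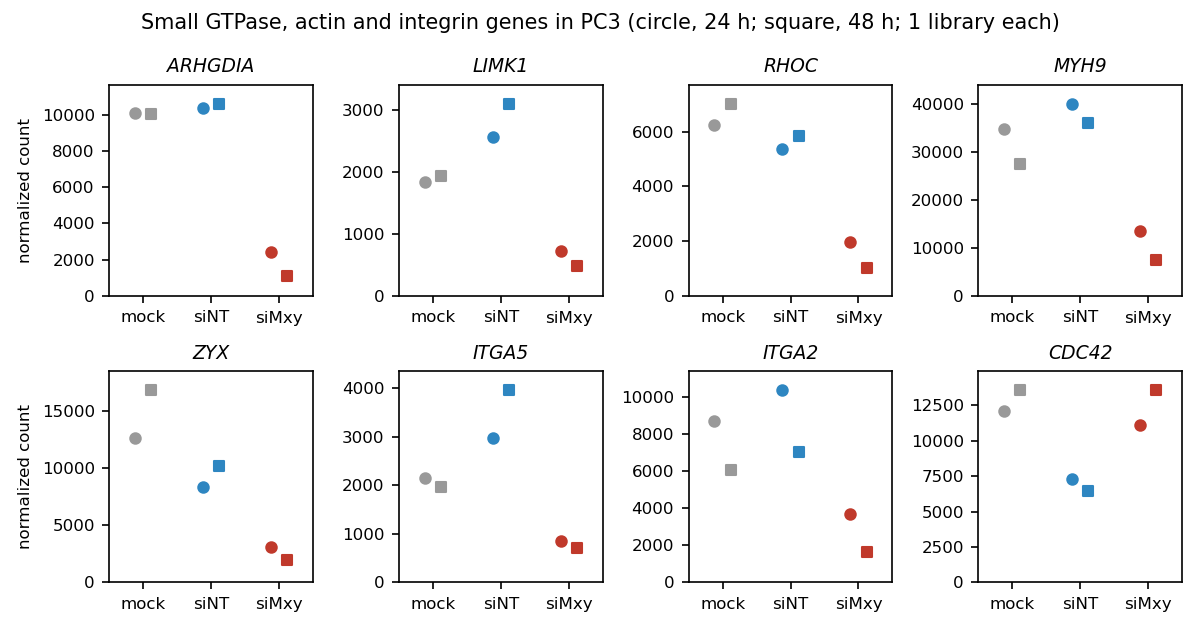
Normalized counts (vertical axes, starting at 0) of 8 small GTPase, actin and integrin genes in mock, siNT and siMxy PC3 cells; each point is 1 library, circles 24 h and squares 48 h. In the first 7 panels both siMxy libraries lie below all others, and in the CDC42 panel the siNT libraries are the lowest.

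Integrins, the receptors that tie this skeleton to the matrix, changed in both directions. Of 16 subunit genes, 2 were lower and 2 higher. The median was -0.43, and it was -0.20 without the 24 h siMxy library and also -0.20 when adjusted for transcript GC content and length. ITGA5, which pairs with beta 1 to bind fibronectin, fell from 2984 and 3959 normalized counts to 845 and 717 (log2 fold change -2.15, SE 0.20, adjusted p = 0.00700). ITGA2, a collagen receptor subunit, fell from 10347 and 7043 to 3669 and 1617 (-1.80, SE 0.20, adjusted p = 0.00832). ITGB2 and ITGB5 rose by 0.79 and 0.66 on the log2 scale (adjusted p = 0.0396 and 0.0423). ITGA5 was also lower after siCAG, at 1474 and 1371, though still above both siMxy libraries. Of 24 clathrin and endocytosis genes, 2 fell, EPN1 (-2.42, SE 0.39, adjusted p = 0.0185), an adaptor that bends membranes at coated pits, and SH3GL1 (-1.62, adjusted p = 0.00739), and HIP1 rose (0.62, adjusted p = 0.0445).

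Targets of YAP and TEAD, the transcription factors that respond to cell tension and density, moved both ways. Of 23 tested, 5 were higher and 3 lower (median 0.29). CTGF, a matricellular protein and standard YAP target, went from 1311 and 1267 normalized counts to 3372 and 10080 (log2 fold change 2.32, SE 0.46, adjusted p = 0.0287). CYR61, its relative, went from 6999 and 7065 to 14999 and 18419 (1.25, SE 0.26, adjusted p = 0.0312). NUAK2, a kinase that feeds back on YAP, went from 240 and 229 to 628 and 798 (1.60, SE 0.30, adjusted p = 0.0249). AXL, a receptor tyrosine kinase, fell from 17236 and 22303 to 8198 and 3735 (-1.77, SE 0.38, adjusted p = 0.0331). CTGF, CYR61, NUAK2 and AXL had log2 fold changes of 1.26, 0.64, 1.88 and -1.48 in HeyA8 cells. The list had a median of -0.17 in HeyA8 cells, with 8 of 23 members above 0. Against mock in PC3 cells the list had a median of 0.65, with 9 members higher and 2 lower.

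The inhibitors of differentiation ID1 and ID3 and the inhibitory SMAD7, all early targets of BMP and TGF-beta receptors, rose together. ID3 went from 1525 and 545 normalized counts to 2975 and 2440 (log2 fold change 1.57, SE 0.32, adjusted p = 0.0306), and ID1 from 5953 and 1675 to 11860 and 5237 (1.29, SE 0.23, adjusted p = 0.0211). Both genes were higher at 24 h than at 48 h with either siRNA, and for ID1 the 48 h siMxy library lay below the 24 h siNT library, so its groups overlap unless compared within a time point. SMAD7 went from 111 and 54.5 to 279 and 348 (SE of the log2 fold change 0.40, adjusted p = 0.0298), with groups that did not overlap. These were the 3 members that rose of 35 genes of the pathway, 1 member fell, and the median was 0.04. In HeyA8 cells ID1 stood at -0.58.

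Among the HOX genes, which encode the transcription factors of body patterning, those called on chromosome 7 lie at 1 end of their cluster. Whether the rise is limited to that end was not tested. Of 30 HOX genes tested, 5 were higher and 1 lower (median 0.45). HOXA10 had 575 and 581 normalized counts after siNT, 2517 and 3007 after siMxy and 676 and 615 in mock (log2 fold change 2.26, SE 0.18, adjusted p = 0.00700). HOXA11 went from 601 and 712 to 2444 and 3214 (2.11, SE 0.26, adjusted p = 0.0110), HOXA13 from 985 and 1159 to 2081 and 3588 (1.38, SE 0.22, adjusted p = 0.0188) and HOXA9 from 381 and 139 to 873 and 369 (1.28, SE 0.31, adjusted p = 0.0434). For HOXA9 the 48 h siMxy library lay just below the 24 h siNT library. For the other 3 the groups did not overlap, which is a description with 2 libraries per siRNA. HOXA9 starts at 27162438 and HOXA13 ends at 27200106 on hg38. The genes of the cluster from HOXA2 to HOXA6 had log2 fold changes between 0.44 (HOXA5) and 0.90 (HOXA2) with adjusted p-values of 0.197 (HOXA2) or more, at 203 normalized counts (HOXA3) or fewer in the siNT and siMxy libraries.

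The antisense transcripts HOXA10-AS and HOXA11-AS had log2 fold changes of 0.93 (adjusted p = 0.0490) and 1.73 (adjusted p = 0.0298). Whether the counting used strand is not given in the sources used here, so reads of a HOX gene and of its antisense partner may be mixed where they overlap. Outside this cluster HOXC13 rose (0.88, adjusted p = 0.0346). HOXB13, which marks the prostate lineage, fell from 5639 and 8526 normalized counts to 2987 and 2483 (-1.31, SE 0.24, adjusted p = 0.0233), and mock cells held 9234 and 15100. HOXA10 and HOXA13 stood at 0.56 and 1.74 in HeyA8 cells, while HOXA9, HOXA11 and HOXC13 did not pass the filter on low counts there. The HOX list had a median of -0.28 in HeyA8 cells, with 8 of 23 members above 0.

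PC3 cells are known to keep epithelial keratins and to lack secretory prostate proteins, and the libraries were checked for this. KLK2 and KLK3, the kallikreins of the secretory prostate, had 0 reads in all 8 PC3 libraries. In the 4 libraries KRT8 had 3590 to 7218 reads and EPCAM 593 to 938. Of 7 leukocyte markers CD3E and MS4A1 were at 0 in all 8 libraries, and the 7 together had 921 and 790 reads after siNT and 783 and 417 after siMxy. Most of these came from CD68, a lysosomal protein that other cells also make (892 and 772 against 771 and 355), while CD14 went from 6 and 12 reads to 5 and 58. The 7 stromal markers together had 1325 and 2030 reads after siNT and 1135 and 859 after siMxy, most of them from COL1A1 (1132 and 1733 against 1017 and 753). None of the 7 stromal markers was at 0 in all 8 libraries, DCN was at 0 in the siNT and siMxy libraries, and PDGFRA was the 1 called (lower, log2 fold change -1.48, adjusted p = 0.0478). The part of such cells in the results was not tested. The 6 prostate carcinoma markers together had 29853 and 31898 reads after siNT and 29368 and 16823 after siMxy, so the 48 h siMxy library was the low one. HOXB13 was the only one of the 6 past the test, and KRT19 had a log2 fold change of -0.60 (adjusted p = 0.228). CDH1, E-cadherin, had 786 and 612 reads after siNT and 1154 and 892 after siMxy, and KRT8 went from 5787 to 7218 at 24 h and from 5305 to 3590 at 48 h. Fewer cells of a type and less RNA per cell cannot be told apart in such libraries.

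Other genes of the prostate lineage also fell. Of 7 tested, 2 were lower and 0 higher, SLC45A3 (prostein; 772 and 943 normalized counts against 364 and 233, log2 fold change -1.50, SE 0.28, adjusted p = 0.0251) and TMPRSS2 (761 and 1143 against 523 and 502, -0.85, SE 0.21, adjusted p = 0.0433). The median of the 7 was -0.72, with 0.00 at 24 h and -1.19 at 48 h. Among 17 epithelial genes, CLDN4, a tight junction protein, fell (-1.26, adjusted p = 0.0453), as did the desmosomal DSP (-0.76, adjusted p = 0.0261), and CLDN1 rose (0.68, adjusted p = 0.0350). Of 12 mesenchymal genes 0 passed the test in either direction, with 3 lower and 1 higher at an unadjusted p under 0.05 in edgeR and 1 lower and 0 higher by DESeq2. VIM, vimentin, had a log2 fold change of 0.21 (adjusted p = 0.299).

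The lowered genes were split by the time of the larger difference from siNT. Of the 908, 627 were lower by more at 48 h than at 24 h (late fallers) and 281 by more at 24 h (early fallers). The split puts every gene in a class, rests on 1 library per siRNA and time, was made after the values were seen and is a description. The later fallers had a median log2 fold change of -0.92 at 24 h and -1.47 at 48 h, and the earlier ones had -1.45 at 24 h and a smaller fall at 48 h. HMGA1, an architectural chromatin protein, is a late faller, with 26024 and 33847 normalized counts after siNT and 9305 and 3640 after siMxy (log2 fold change -2.22, SE 0.43, adjusted p = 0.0274). KIF14, a mitotic kinesin, is an early one, with 2910 and 948 after siNT and 319 and 327 after siMxy (-2.30, SE 0.58, adjusted p = 0.0474). RAB27B, a GTPase of exosome release, had 3263 and 1248 against 517 and 378 (-2.22, SE 0.31, adjusted p = 0.0131). In KIF14 and RAB27B the siNT level dropped between 24 and 48 h by more than the siMxy level did, so the difference from siNT was smaller at 48 h without a recovery after siMxy.

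**Figure D4:**
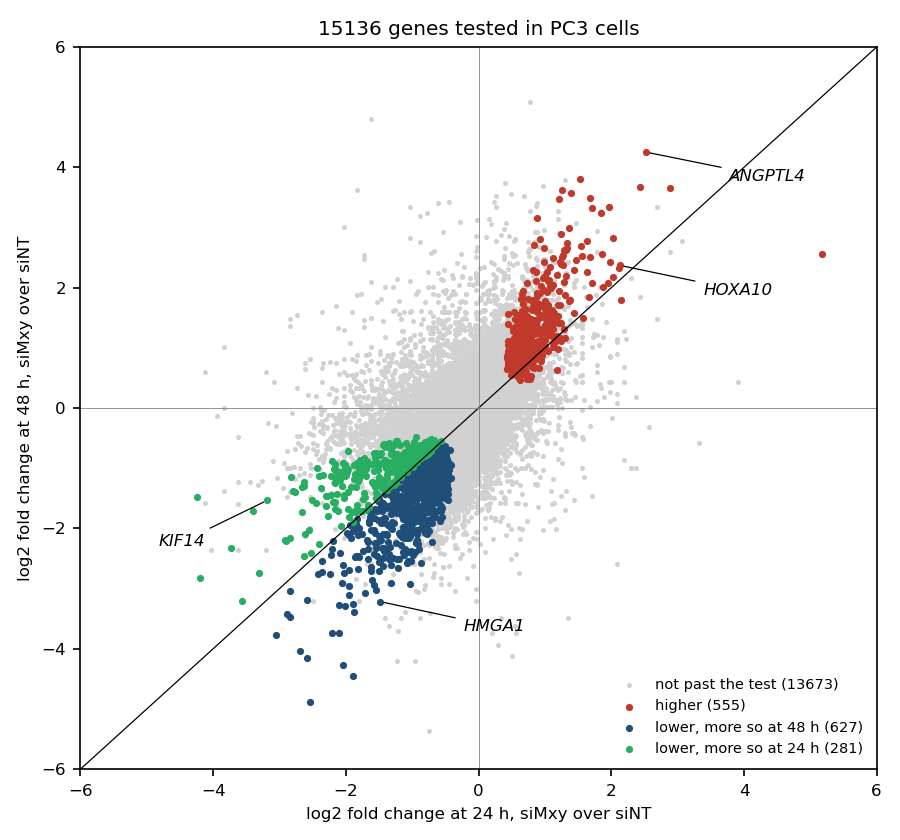
Log2 fold change at 48 h against that at 24 h (siMxy over siNT, 1 library per siRNA and time) for 15136 genes tested in PC3 cells; colours mark genes past the test and the line marks equal change. Most risen genes (511 of 555) and 627 of 908 lowered genes lie on the side of the larger change at 48 h, and 281 lowered genes, KIF14 among them, on the side of the larger fall at 24 h.

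The classes also differed in base composition. Across all genes the changes at 24 and 48 h themselves vary with 3′ UTR GC content, so neither GC content nor the share with GCCCCC is independent of the split. The 3′ UTRs of the late fallers had a median GC content of 49.6% (586 genes with an annotated 3′ UTR) and those of the early fallers 34.2% (256 genes), against 42.6% over 13354 genes. GCCCCC was present in 62.8% of the late and 30.9% of the early fallers, against 32.6% of all genes tested with a 3′ UTR. In HeyA8 cells 513 of 561 late fallers (91.4%) lay below 0 with a median log2 fold change of -0.79, and 178 of 260 early ones (68.5%) with a median of -0.13, where 49.5% of all genes lay below 0. After siCAG the early fallers had a median of -0.28 against the same siNT libraries and the late ones -0.11. The risen genes with the larger rise at 48 h had a median of 0.45 in HeyA8 cells, where 31 of 475 lay below 0.

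Base composition moved with the change at 24 h across all genes. When genes were put into 5 groups of equal size by 3′ UTR GC content, in the lowest group (34.8% or less), genes had a median of -0.51 at 24 h and -0.098 at 48 h (log2 fold change), and 9.21% of genes were lower and 1.35% higher. In the highest group (54.25% or more) it was 0.13 at 24 h and -0.15 at 48 h, and 8.62% were lower and 3.45% higher. Against mock at 24 h, the siMxy library had a median of -0.48 in the lowest group and the siNT library one of 0.0028. At 48 h these were -0.35 and -0.22. The lowest group had medians of 0.078 and 0.041 in HeyA8 cells. The part of base composition in the calls was not tested.

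**Figure D5:**
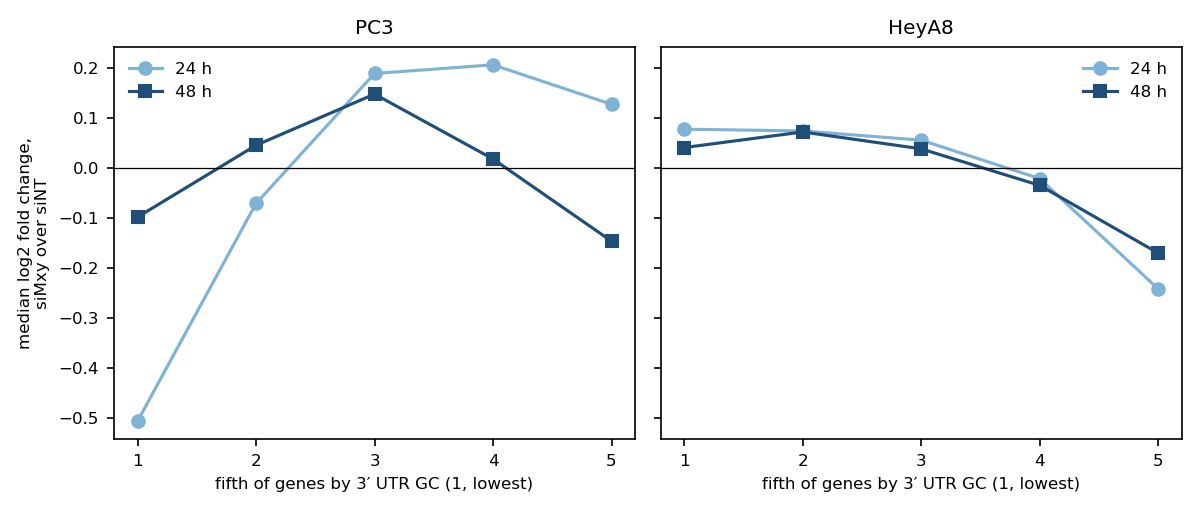
Median log2 fold change (siMxy over siNT, vertical axis) of genes in 5 groups of equal size by 3′ UTR GC content (horizontal axis, 1 lowest to 5 highest), in PC3 cells (left) and HeyA8 cells (right) at 24 and 48 h. The lowest group in PC3 cells at 24 h stands at -0.51, and in HeyA8 cells the highest group is the lowest at both times.

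Cell cycle genes gave few calls against siNT. Of 50 replication genes 1 was lower and 2 higher, with a median of 0.26 at 24 h and -0.42 at 48 h. RRM2, the regulated subunit of ribonucleotide reductase, went from 7877 and 5902 normalized counts to 17876 and 9138 (log2 fold change 0.92, SE 0.18, adjusted p = 0.0281), but mock cells held 14968 and 11736, and against mock its change was -0.05 (adjusted p = 0.871). Without the 24 h siMxy library 10 replication genes were lower. Of 38 mitotic genes 3 were lower and 0 higher (median -0.13, with -0.03 at 24 h and 0.02 at 48 h, and 0.046 without the 24 h siMxy library), and against mock 14 were lower and 0 higher (median -0.46), where the siNT libraries had a median of -0.37 against mock. FOXM1, the factor that drives mitotic genes, fell from 4854 and 5644 to 2810 and 1413 (-1.36, SE 0.27, adjusted p = 0.0287), and MKI67, the proliferation antigen Ki-67, from 11460 and 10071 to 4841 and 3734 (-1.35, SE 0.29, adjusted p = 0.0334). MKI67 was at 3268 in the 48 h siCAG library as well.

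Of 15 G1 cyclins, kinases and inhibitors, 3 were lower and 1 higher. CDK6, a kinase of the G1 phase, fell from 2692 and 2005 to 633 and 954 (log2 fold change -1.51, SE 0.31, adjusted p = 0.0306). Mock cells held CDK6 at 1597 and 1107, and against mock its change was -0.71 (adjusted p = 0.128). The inhibitors went opposite ways, with CDKN1B (p27) rising from 685 and 755 to 1129 and 2032 (1.10, SE 0.23, adjusted p = 0.0309) and CDKN1A (p21) falling from 1503 and 916 to 904 and 281 (-1.17, SE 0.27, adjusted p = 0.0392). Mock cells held CDKN1A at 598 and 318, and against mock its change was 0.26 (adjusted p = 0.502). Of 40 replication-dependent histone genes tested 1 was higher and 0 lower, with a median of 0.08 at 24 h and 0.76 at 48 h, and against mock 11 were higher and 0 lower (median 0.85). Histone genes took 0.0483% of all reads in the 48 h siMxy library and 0.0198% to 0.0267% in the siNT libraries.

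Targets of ATF4 and of NRF2 gave calls in 1 direction, higher, and more of them against mock. Of 24 targets of ATF4 and the integrated stress response, 3 were higher and 0 lower (median 0.33), among them DDIT4, an mTOR inhibitor that hypoxia also induces (421 and 585 against 781 and 1942 normalized counts, log2 fold change 1.33, SE 0.23, adjusted p = 0.0200). Of 23 NRF2 targets 4 were higher and 0 lower (median 0.26), led by the quinone reductase NQO1 (5976 and 5508 against 9390 and 16860, 1.17, SE 0.24, adjusted p = 0.0318). Of 19 endoplasmic reticulum chaperone and unfolded protein response genes 1 was lower, HSP90B1 (53229 and 36880 against 27134 and 16261, -1.07, SE 0.17, adjusted p = 0.0165). Against mock 11 of the 24 ATF4 targets, 10 of the 23 NRF2 targets and 11 of the 19 chaperone genes were higher, with medians of 0.69, 0.41 and 0.53, and the siNT libraries had medians of 0.50, 0.19 and 0.36 against the same mock libraries. Of 4 metallothioneins tested 0 were called in edgeR, with 0 also at an unadjusted p under 0.05, and 3 were higher against mock (median 1.10), where the siNT libraries had a median of 0.89.

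Of 37 apoptosis and necroptosis genes 1 was lower and 3 higher. FAS, the death receptor CD95, fell from 227 and 167 normalized counts to 77.1 and 34.1 (log2 fold change -1.90, SE 0.27, adjusted p = 0.0131). The killer proteins BCL2L11 (BIM) and BID and the protector MCL1 rose by 0.82, 0.64 and 0.64 on the log2 scale (adjusted p = 0.0385, 0.0467 and 0.0323). Of 31 interferon and RNA sensing genes 3 were lower and 1 higher (median 0.12, and 0.024 without the 48 h siMxy library). IFI44L, an interferon-stimulated gene, fell from 505 and 315 to 107 and 56.9 (-2.34, SE 0.25, adjusted p = 0.00773) and IFIT1 rose from 334 and 258 to 534 and 605, with 480 and 512 in mock. Of 21 NF-kB cytokine and regulator genes 0 passed the test against siNT in either direction in edgeR or DESeq2, with 0 lower and 3 higher at an unadjusted p under 0.05 in edgeR, while 13 were higher against mock, where the siNT libraries themselves had a median of 0.97.

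Among 13 genes of the Argonaute and small RNA pathway, 3 were higher and 1 lower. AGO2, the slicing Argonaute, went from 2581 and 3266 normalized counts to 3989 and 5162 (log2 fold change 0.64, SE 0.14, adjusted p = 0.0328), AGO4 from 505 and 484 to 875 and 1293 (1.11, SE 0.20, adjusted p = 0.0220), and XPO5, which exports precursor miRNAs, had 0.63 (adjusted p = 0.0419). DROSHA, the nuclease that cuts primary miRNAs, fell from 2754 and 3038 to 1579 and 1166 (-1.08, SE 0.18, adjusted p = 0.0193). For AGO4 mock cells held 840 and 927, so its siNT libraries were the low ones. AGO2, AGO4 and DROSHA in HeyA8 cells had log2 fold changes of 0.70, 1.19 and -0.77.

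Degradation and polyamine genes changed both ways. Of 22 autophagy genes 3 were higher and 1 lower, GABARAPL1, a protein of the autophagosome membrane, rising from 290 and 371 normalized counts to 618 and 1487 (log2 fold change 1.59, SE 0.29, adjusted p = 0.0238) and ULK1, the initiating kinase, falling from 2961 and 2882 to 1407 and 1499 (-1.01, SE 0.14, adjusted p = 0.0131). Among 15 V-ATPase genes, which acidify lysosomes, ATP6V0C fell (-2.01, SE 0.34, adjusted p = 0.0198) and ATP6V0B rose (0.85, SE 0.15, adjusted p = 0.0219). Of 13 polyamine and hypusine genes 3 were higher and 1 lower. ODC1, the first enzyme of polyamine synthesis, and OAZ1 and OAZ2, the antizymes that destroy it, rose by 0.58, 0.61 and 0.85 (adjusted p = 0.0375, 0.0443 and 0.0434), and EIF5A, the protein that carries hypusine, fell by 1.70 on the log2 scale (adjusted p = 0.0228). IMPDH1, an enzyme of guanine nucleotide synthesis, fell from 4503 and 5674 to 1474 and 784 (-2.19, SE 0.29, adjusted p = 0.0125). Of 16 JAK-STAT and cytokine receptor genes 3 were lower and 1 higher (median -0.43, with -0.11 at 24 h, -0.68 at 48 h and -0.69 without the 24 h siMxy library), with -1.49 for JAK2 (SE 0.26, adjusted p = 0.0218) and 0.80 for the receptor OSMR (adjusted p = 0.0345).

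Among the other most changed abundant genes, SLC4A8, a sodium-driven bicarbonate exchanger, went from 535 and 633 normalized counts to 1710 and 3592 (log2 fold change 2.13, SE 0.29, adjusted p = 0.0130). NCEH1, a cholesteryl ester hydrolase, RBM15, an RNA-binding protein of the m6A writer complex, SCML1 and ARHGAP19 rose by 1.60, 1.62, 1.61 and 1.57 (adjusted p = 0.0136, 0.0280, 0.0169 and 0.00922). Against mock SCML1 had 0.54 and did not pass the test (adjusted p = 0.143). FAM189B and BTBD2 fell by 2.30 and 2.24 (adjusted p = 0.00773 and 0.00700). SLC4A8, NCEH1, RBM15, SCML1 and ARHGAP19 had log2 fold changes of 2.43, 1.42, 1.22, 1.18 and 1.49 in HeyA8 cells, and FAM189B and BTBD2 -2.59 and -2.15. The difference between the lines, tested as an interaction over all 16 libraries, was past the threshold for 0 of 15887 genes in edgeR, with 1054 at an unadjusted p under 0.05, so no change above is shown to differ between PC3 and HeyA8 cells.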

How the data were processed

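Reads were trimmed with Trimmomatic, aligned to hg38 and counted on exons with HTSeq by the authors, who deposited whole-number counts without normalization for 26485 genes. The submitters' processing notes name STAR and HTSeq. From these counts, genes were kept by filterByExpr and normalized by TMM, and edgeR 4.0.16 (R 4.3.3) fitted all 8 PC3 libraries by quasi-likelihood, with terms for siRNA and for time, with 3 residual degrees of freedom and Benjamini-Hochberg adjustment. The fit was tested on simulated data. Single-time fold changes are log2(normalized count + 1) and have no replicate.

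The members and gene lists were chosen with earlier results of these data known. Named genes are the 12 most risen and 12 most fallen with an adjusted p under 0.05 above 1000 normalized counts, up to 4 called members per list above 100 normalized counts, or the 2 most abundant members where none was called. Further members of the glycolytic, hypoxia and HOX lists were named with their values in view. Some genes picked by the rule are left out of the text but kept in all counts and medians. DESeq2 1.42.0, RLE size factors, other filters, no time term, mock as control and left-out libraries were tried. GENCODE v44 matched 23161 symbols directly and 1381 by older symbols. Of the genes tested, 502 lie partly on alternate contigs.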

Additional observations from a re-analysis of the deposited data

Results flagged for a closer look

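Among the named genes past the test in PC3 cells, 7 moved one way at both times in this line and the other way at both times in HeyA8. They were picked for that, so the opposite direction itself was not tested, and the interaction of siRNA and line passed the threshold for 0 of 15887 genes in edgeR (1054 at an unadjusted p under 0.05). The log2 fold changes in HeyA8 cells were -0.58 for ID1 and -0.13 for ODC1, -0.14 for LIPA and -0.10 for CCT7, which had risen in PC3 cells, and 1.89 for OAS2, 0.36 for IFI44 and 0.086 for ZNF430, which had fallen. The interferon-stimulated OAS2 fell from 559 and 710 normalized counts to 323 and 330 in PC3 cells, and its HeyA8 log2 fold change was 0.74 at 24 h and larger at 48 h.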

How the results depend on the processing

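The numbers of genes lower and higher were 904 and 552 with RLE size factors, 817 and 542 with the stricter filter and 874 and 327 without the siCAG libraries. That fit and the adjustment for GC content and length were added after the data were seen. They were 1703 and 1156 with DESeq2, 1223 and 630 without a filter on low counts, 1863 and 1337 with mock as control, 363 and 75 from the 4 siMxy and siNT libraries alone, and 637 and 214 at 2-fold or more. With no replicate block (no term for the time point, which is also the replicate number) they were 448 and 177, each also called with it. Leaving out 1 library at a time gave 0 to 2111 lower and 0 to 1591 higher: 536 and 81 without the 48 h siMxy library, 2111 and 1591 without the 24 h one, and 0 without either siNT library. The lone library is then assumed to vary like the other conditions, and the cause of these moves was not tested. List medians kept their sign under all 15 alternatives for glycolysis (0.41 to 1.06), hypoxia targets (0.56 to 1.28), the proteasome (0.34 to 0.46) and HOX genes (0.23 to 0.74). The snoRNA hosts also kept theirs (-0.79 to -0.22), but the adjustment for GC content and length covered only part of that list. Many other lists kept their sign under all 15 as well. Among them were cytosolic ribosomal proteins (0.046 to 0.26), splicing factors (0.16 to 0.28) and integrin subunits (-0.54 to -0.20). The alternatives share libraries, so a kept sign does not set a list apart. Against mock, CDKN1A changed by 0.26 and RRM2 by -0.046, the opposite of their direction against siNT. Of the other called genes of the report, AGO4, AXL, BNIP3, CDC42, CDK6, CLDN1, ENO1, GAPDH, IFIT1, LDHA, MCL1, PABPC1, PDGFRA, PFKFB4, PGK1, PKM, PSMB2, SCML1, TPI1 and UCP2 did not pass against mock. With 2 libraries per siRNA, a gene not called may still have changed.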

Other observations

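Lists chosen after the values were seen add 3 groups, given as descriptions. Of 21 circadian clock genes tested, 7 were higher and 1 lower, with a median log2 fold change of 0.40. Against mock 6 were higher and 4 lower, and the median was 0.04. The repressors of the clock CRY1, CRY2 and PER2 rose by 0.73, 1.17 and 0.76 (adjusted p = 0.0402, 0.0441 and 0.0385), and the activator NPAS2 fell from 3952 and 5166 normalized counts to 2422 and 1571 (-1.17, adjusted p = 0.0351). Of 43 genes of double-strand break repair, 10 were lower and 1 higher (median -0.30), including BRCA1 (1504 and 863 normalized counts against 463 and 266, log2 fold change -1.70, adjusted p = 0.0253) and its partner helicase BRIP1 (-1.72, adjusted p = 0.0325). The 48 h siCAG library was also low for BRCA1, at 353, and mock cells held 1698 and 1500.

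After siCAG against the same siNT libraries the repair list had a median of -0.46 and the cohesin and centrosome list one of -0.44, with 0 members called in either. Of 27 cohesin and centrosome genes, 10 were lower and 0 higher, with a median of -1.07 (-1.41 at 24 h and -0.59 at 48 h). RAD21, a ring subunit of cohesin, went from 15602 and 13458 normalized counts to 5871 and 4996 (log2 fold change -1.42, adjusted p = 0.0151), with 13344 and 7103 after siCAG. The median 3′ UTR GC content of this list was 33.8%, below the 42.6% of all genes, and the part of base composition in its fall was not tested. In HeyA8 cells the medians were 0.07 for cohesin and centrosome genes, 0.09 for repair and 0.25 for the clock.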
